A study of Saccharomyces cerevisiae with 36 samples.

Results

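The data described here are 2 arrays, of 36 in the series, on which RNA of budding yeast (Saccharomyces cerevisiae) treated with 20 mM caffeine for 90 min was hybridised against RNA of untreated yeast. They were chosen by their labels, which agree in title, description and both channels. Caffeine RNA carried the red dye Cy5 on the array of replicate 1 and the green dye Cy3 on that of replicate 2, and untreated RNA (0 mM caffeine) carried the other dye on each. The series' design text calls them biological replicates, so n = 2 arrays throughout. The labels name no strain, medium or growth phase, and do not say whether an untreated culture served more than 1 array. The other 34 arrays entered only the estimates of dye terms and residual variance. In a comparison of total RNA, fewer cells of a kind and less RNA per cell cannot be told apart.

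Caffeine is a methylxanthine. In yeast it is known as an inhibitor of the TOR kinase in TOR complex 1 and, more weakly, of related kinases of the DNA damage response, and it also inhibits cyclic nucleotide phosphodiesterases. TOR complex 1 couples nitrogen and amino acid supply to growth. When it is active, cells make ribosomes and keep apart from the nucleus the factors for poor nitrogen sources (Gln3, Gat1), for the signal from mitochondria to nucleus (Rtg1, Rtg3) and for general stress (Msn2, Msn4). Mutants with a weak cell wall are sensitive to caffeine, which makes it a tool of cell wall research. The design asked which transcripts differed between treated and untreated cells.

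Values are log2 ratios, each array centred on the median of its genes. They were taken as caffeine over untreated. The files do not state the direction, and a sign shared by both arrays cannot tell this ratio from its inverse, so every "higher" and "lower" rests on that reading. Both arrays ran the same way. Over 5317 genes measured on both, their values correlated with Pearson's r = 0.67 and Spearman's rho = 0.65 across genes, which are not independent replicates, and 3909 genes (73.5%) had the same sign. The spread across genes was wider on the replicate 2 array (scaled median absolute deviation 0.739) than on that of replicate 1 (0.496). Values between duplicate spots of a gene differed by a median of 0.0945 on replicate 1 and 0.102 on replicate 2. Of the named spots, 7.82% and 3.23% were left out because they lay at a floor value, taken as the most frequent ratio of the array. Before centring this value was a log2 of −0.45 on replicate 1 and 0.995 on replicate 2, so it was not the lowest ratio.

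After 90 min of 20 mM caffeine the highest transcripts were those of TFS1, APE1 and MEP2, an inhibitor of a vacuolar protease, a vacuolar peptidase and an ammonium permease, and the lowest were those of RPA135, NAN1 and DBP2, a subunit of RNA polymerase I, a factor of ribosome assembly and an RNA helicase. Of 5270 genes tested, limma called 2352 (44.6%) at a Benjamini-Hochberg adjusted p below 0.05, of which 1167 (22.1%) were higher and 1185 (22.5%) lower. Here "rose" and "fell" mean a gene past that threshold. The counts of gene lists below are to be read beside these 22.1% and 22.5%. Lists near both shares, such as amino acid permeases (25% and 25%) and cell cycle regulators (16.7% and 22.2%), do not stand out by count. Larger changes were mostly upward: 419 genes rose and 202 fell by more than 1 on the log2 scale, and 74 rose and 13 fell by more than 2. Among the called genes, 2300 had the same sign on both arrays. The error of each ratio (SE) rests on the residual variance of a gene over all 36 arrays, at a median SE of 0.165, and so does not measure the spread of these 2 arrays. Fitted to the 2 arrays alone, limma called 842 genes (16% of those tested), 563 higher (10.7%) and 279 lower (5.29%), of which 833 were also called with all arrays. With all arrays scaled to one spread it called 899, 498 higher (9.45%) and 401 lower (7.61%). Without centring, the split was 981 higher and 1314 lower.

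**Figure D1:**
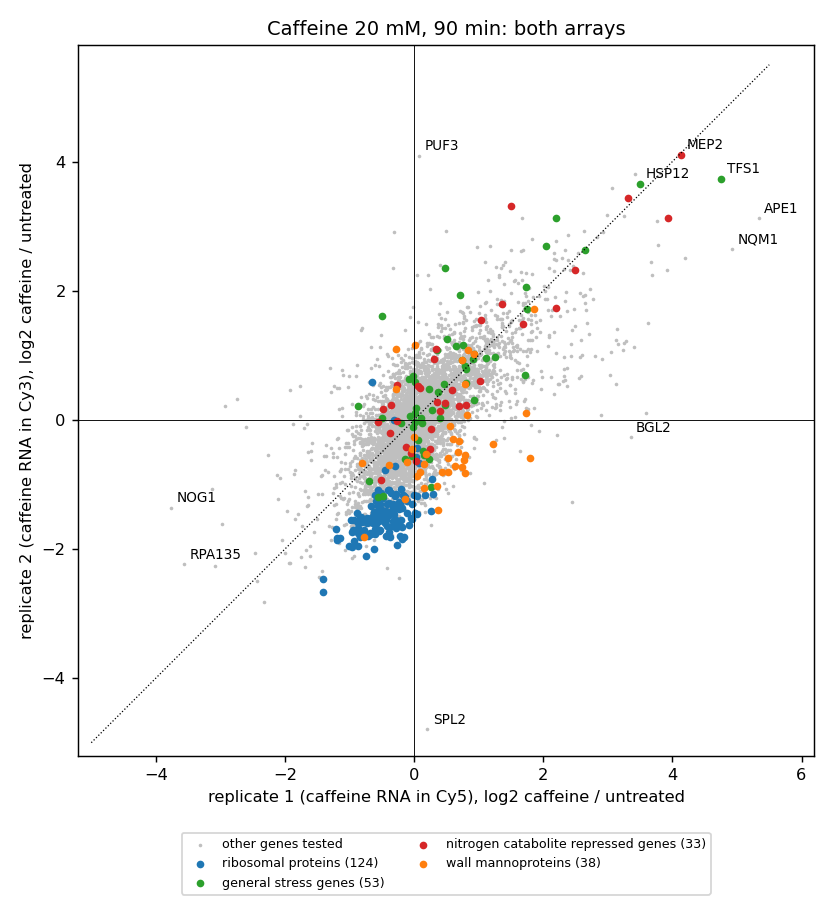
Each point is 1 of 5270 genes, with its log2 ratio of caffeine over untreated on the replicate 1 array (x axis) and on the replicate 2 array (y axis). Coloured points are 4 gene lists, the dotted line marks equal values, most ribosomal protein genes lie below it at the lower left, and many wall mannoprotein genes lie at the lower right, with opposite signs on the 2 arrays.

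TFS1 (YLR178C), a cytosolic inhibitor of the vacuolar carboxypeptidase Y, had log2 ratios of 4.76 and 3.74 on replicates 1 and 2, a mean of 4.25 ± 0.46 (SE) or 19-fold (limma adjusted p = 1.36e-06). APE1 (YKL103C), a vacuolar aminopeptidase carried by the autophagy machinery, had 5.34 and 3.12, a mean of 4.23 ± 0.40. MEP2 (YNL142W), the high-affinity ammonium permease, had 4.14 and 4.11, a mean of 4.12 ± 0.33 or 17.4-fold. Those 3 genes stood highest of all, and both arrays put each of them above 3. NQM1 (YGR043C), a transaldolase of the pentose phosphate pathway found in non-dividing cells, had 4.93 and 2.64. HSP12 (YFL014W), which protects membranes under stress, had 3.50 and 3.66, a mean of 3.58 ± 0.18. RRI2 (YOL117W), a subunit of the COP9 signalosome, had 4.19 and 2.51, and RIM21 (YNL294C), a sensor of external pH, had 3.77 and 2.71. The other 8 of the 15 highest were ARO10, DAL3, ARO9, DAL5, CIT2, CIT1, YEL073C (3.21 ± 0.17) and CSS3 (3.12 ± 0.29), and most are described with their pathways below. All 15 lay above 2 on both arrays, all 15 were also called from the 2 arrays alone, and no other setting that tested them lost one.

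At the other end, RPA135 (YPR010C), the second largest subunit of RNA polymerase I, had −3.57 and −2.24, a mean of −2.90 ± 0.34 or 7.47-fold lower (limma adjusted p = 1.03e-06). NAN1 (YPL126W), a component of the small subunit processome, had −3.08 and −2.26. DBP2 (YNL112W), an RNA helicase, had −2.33 and −2.82. FAA4 (YMR246W), a long-chain acyl-CoA synthetase, had −2.0 and −2.06, and IMD2 (YHR216W), an IMP dehydrogenase of guanine nucleotide synthesis, had −1.47 and −2.43. REC102 (YLR329W), needed for meiotic recombination, had −2.05 and −1.86. Among the 15 lowest were also the assembly factors NOG1, NIP7, NOG2, FCF2 (−2.10 ± 0.32), NOC3 (−2.07 ± 0.30) and RRB1 (−1.98 ± 0.19), the polymerase subunits RPO31 and RPA43, and the ribosomal protein gene RPS11B. Each was below −1 on both arrays, and the calls of all 15 held from the 2 arrays alone and in every other setting that tested them.

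**Figure D2:**
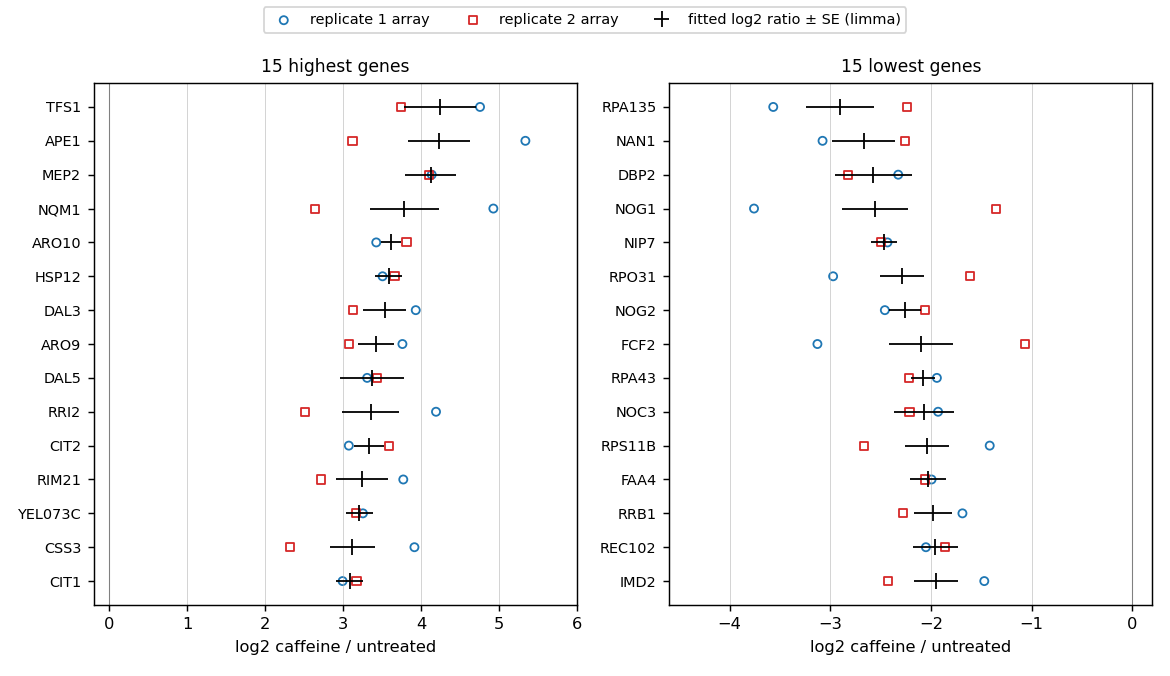
Log2 ratios of caffeine over untreated (x axis) of the 15 highest (left) and 15 lowest (right) genes that passed with the same sign on both arrays. Circles are replicate 1, squares replicate 2, and black bars the fitted value ± SE from limma; MEP2, HSP12, YEL073C, CIT1, NIP7 and FAA4 have nearly equal values on both arrays, while NOG1 (−3.76 and −1.36) and APE1 (5.34 and 3.12) do not.

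The genes of the cytosolic ribosome fell together. Of 124 ribosomal protein genes tested, of 136 on the array, 115 fell, 0 rose and 9 did not pass, beside 22.5% lower among all genes tested. Their median was −0.97, against −0.03 for all genes, and their values ran between −2.04 and −0.03. Large subunit genes (73 tested, 68 lower) had a median of −0.92 and small subunit genes (51 tested, 47 lower) one of −1.03. RPS11B (YBR048W) was lowest, at −1.42 and −2.67, followed by RPS3 at −1.42 and −2.46. RPS1A (−1.15 and −1.83) and RPS1B (−1.19 and −1.83), which encode the same small subunit protein, had like values, and the large subunit genes RPL9A (−1.53 ± 0.11) and RPL26B (−1.47 ± 0.10) fell as well. The 2 arrays gave different sizes. The median over these genes was −0.46 on replicate 1 and −1.50 on replicate 2, and 122 of the 124 were lower on replicate 2. The dye term, which adds to replicate 1 and subtracts from replicate 2, had a median of 0.37 in large subunit genes and 0.35 in small subunit genes, against 0.01 over all genes. From the 2 arrays alone 24 large and 30 small subunit genes passed as lower, and with arrays scaled 43 and 35.

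Most of these genes exist as A and B copies, whose sequences are so alike that 1 spot may bind both transcripts. Both copies were tested in 46 pairs, and both fell in 39 of them. The log2 ratios of a pair differed by a median of 0.21. RPL1 differed most, by 1.07, with RPL1A at −1.11 ± 0.12 and RPL1B at −0.03 ± 0.50 (−0.65 and 0.58 on its arrays). The 9 that did not pass were RPL1B, RPL34B, RPL40A, RPL41A, RPL41B, RPS0A, RPS10B, RPS19B and RPS23B. Genes of the mitochondrial ribosome did not share the pattern as a list, with a median of −0.04. Among 66 tested, 12 rose (18.2%) and 10 fell (15.2%), or 2 and 1 from the 2 arrays alone. MRP2 (−0.95 ± 0.12) and MRPL15 (−0.24 and −2.45) fell, and MRPL36 (0.07 and 0.88) rose. The calls of MRPL15 and MRPL36 were lost from the 2 arrays alone.

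Factors that build the ribosome were lower too. Of 77 genes of 60S assembly, 50 fell and 0 rose, with a median of −0.49, and of 58 genes of the small subunit processome and 40S assembly, 28 fell and 1 rose, with a median of −0.55. NIP7 (YPL211W), which acts in maturation of 60S particles, had −2.43 and −2.50, a mean of −2.47 ± 0.13. The GTPase genes NOG1 and NOG2, of late nuclear steps of 60S assembly, had −2.56 ± 0.33 and −2.26 ± 0.16. NOP58 (−1.43 and −2.34) and NOP56 (−1.61 and −2.10), the paired core proteins of the box C/D particles that guide methylation of ribosomal RNA, fell by similar amounts. DIM1, which methylates 18S ribosomal RNA, had −0.74 and −0.69, and RRP14 of 60S assembly had −0.45 and −0.91. Both arrays gave the same sign for 64 of the 77 and 45 of the 58 genes. From the 2 arrays alone 18 and 16 of them passed as lower, DIM1 and RRP14 not among them, and without replicate 2 the numbers were 20 and 18.

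RNA polymerases I and III make ribosomal RNA and the small untranslated RNAs. Of 13 tested genes of polymerase I and its factors, 5 fell and 2 rose, and the 4 with the smallest p, RPA135, RPA43 (−2.08 ± 0.12), RPA49 (−1.70 ± 0.13) and RPA12 (−0.94 ± 0.13), all encode subunits of the enzyme. In the list of polymerase III, 5 of 21 fell (23.8%) and 7 rose (33.3%), beside 22.5% and 22.1% of all genes, and the median was 0.04. The share of lower genes was thus near that of all genes. From the 2 arrays alone 2 passed as lower and 4 as higher. The 5 lower genes encode polymerase subunits: the largest one, RPO31 (YOR116C), had −2.97 and −1.61, RPC82 had −0.42 and −2.29, RPC40, shared with polymerase I, had −0.88 and −0.71, and RPC11 and RPC34 stood at −0.81 and −0.80. Among the 7 higher genes were MAF1, the repressor of polymerase III that TOR signalling holds in check, at 2.16 and 2.58 (2.37 ± 0.49, limma adjusted p = 0.000663), and TFC1, TFC3, TFC4 and TFC7, subunits of the DNA-binding factor TFIIIC, at 0.82 ± 0.20, 0.88 ± 0.15, 0.87 ± 0.17 and 0.64. The other higher genes were BDP1 of the initiation factor TFIIIB (0.31) and RPC17, also a polymerase subunit (0.45). RPA12, RPC82, RPC40, RPC11, RPC34, TFC1, TFC4, TFC7, BDP1 and RPC17 lost the call in at least 1 other setting.

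In translation itself, 27 of 39 tested factor genes fell and 1 rose, with a median of −0.64. The number lower was 17 without replicate 2, 16 without the replicate block, 13 with arrays scaled and 11 from the 2 arrays alone. The genes of elongation factor 2, EFT1 and EFT2, which encode the same protein, had −1.19 ± 0.13 and −0.97 ± 0.10. TIF11 (eIF1A) had −1.12 ± 0.10 and TIF3 (eIF4B) −1.14 ± 0.13. TIF4632, one of the genes of eIF4G, was the higher one, at 1.01 on both arrays, while its paralog TIF4631 had −0.39 ± 0.20 and did not pass. The call of TIF4632 was lost without replicate 1, without replicate 2, with arrays scaled and with caffeine arrays only. Of 18 tRNA synthetase genes, 9 fell and 1 rose, among them THS1, the threonine enzyme, at −0.93 ± 0.10, but without replicate 2 the numbers were 2 and 0, and from the 2 arrays alone 0 passed as lower and 1 as higher.

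**Figure D3:**
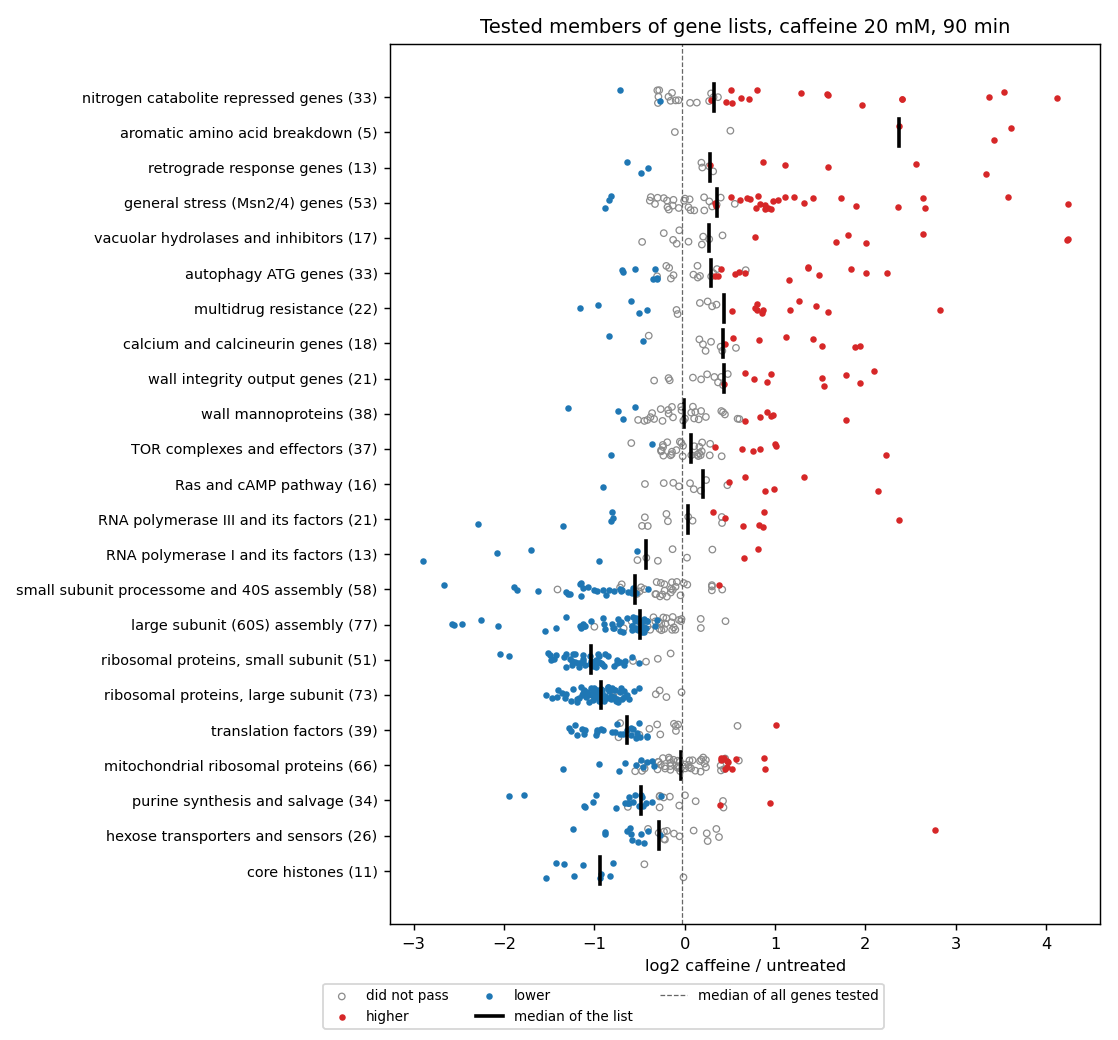
Log2 ratios of caffeine over untreated (x axis) of the tested members of 23 gene lists, 1 row per list with its number of tested genes; red points rose, blue points fell, open points did not pass, black bars are list medians and the dashed line is the median of all genes tested (−0.03). Ribosomal protein, assembly, translation and histone lists lie left of that line, while in the upper rows a part of each list reaches far to the right.

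Some genes for the use of poor nitrogen sources rose strongly, while fewer than 1 in 2 of the list passed as higher. Nitrogen catabolite repression keeps permeases and enzymes for such sources off in rich medium, through Ure2, which retains the activators Gln3 and Gat1. Of 33 tested genes of this list, 16 rose (48.5%) and 2 fell (6.06%), with a median of 0.32. Without replicate 2, 10 rose and 0 fell, from the 2 arrays alone 9 and 0, and with arrays scaled 8 and 0. MEP2 stood first, as given above, and MEP3, the low-affinity ammonium permease, had 1.01 and 0.60. The allantoate permease gene DAL5 (YJR152W) had 3.31 and 3.43, a mean of 3.37 ± 0.41 (limma adjusted p = 2.14e-06). GDH2, which releases ammonium from glutamate, had 2.50 and 2.31. VBA1, a vacuolar transporter of basic amino acids, had 1.68 and 1.49, and PUT1, proline oxidase, 1.37 and 1.79. The activator genes GLN3 (1.29 ± 0.22) and GAT1 (0.62 ± 0.14) and the repressor gene URE2 (0.52 ± 0.17) were all higher.

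Allantoin is a purine breakdown product that yeast can use as its nitrogen source, and 6 genes for it or next to it lie side by side on 1 chromosome. In their order along it, DAL1 (allantoinase) had −0.36 and 0.22, DAL4 (allantoin permease) 0.34 and 1.09, DAL2 (allantoicase) 1.5 and 3.31, DCG1 −0.27 and −0.01, DAL7 (malate synthase) 2.21 and 1.73, and DAL3 (ureidoglycolate lyase) 3.93 and 3.13. DAL3, DAL2 and DAL7 were thus high on both arrays, at 3.53 ± 0.27, 2.40 ± 0.24 and 1.97 ± 0.28. DAL1 and DCG1, which lie in the same stretch, did not pass. Over the genome, the log2 ratios of 4713 pairs of neighbouring genes correlated with r = 0.03 across pairs, which share genes and are given only as a description.

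Other genes under the same control stood near 0. GAP1, the general amino acid permease, had 0.25 and −0.45 (−0.10 ± 0.20, limma adjusted p = 0.709). The proline permease gene PUT4 had −0.37 and −0.21, DAL80, a repressor of the regulon, 0.06 and 0.53, and GLN1, glutamine synthetase, 0.40 and 0.14, and none of the 3 passed. UGA3, the activator of GABA genes, fell (−0.72 ± 0.17), as did GLT1, glutamate synthase (−0.28 ± 0.10). Failing the test is no evidence that these genes were equal in treated and untreated cells. MEP3, DAL4, PUT1, GLN3, GAT1, URE2, UGA3 and GLT1 lost the call in at least 1 other setting, whereas MEP2, DAL2, DAL3, DAL5, DAL7, GDH2 and VBA1 lost it in none.

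**Figure D4:**
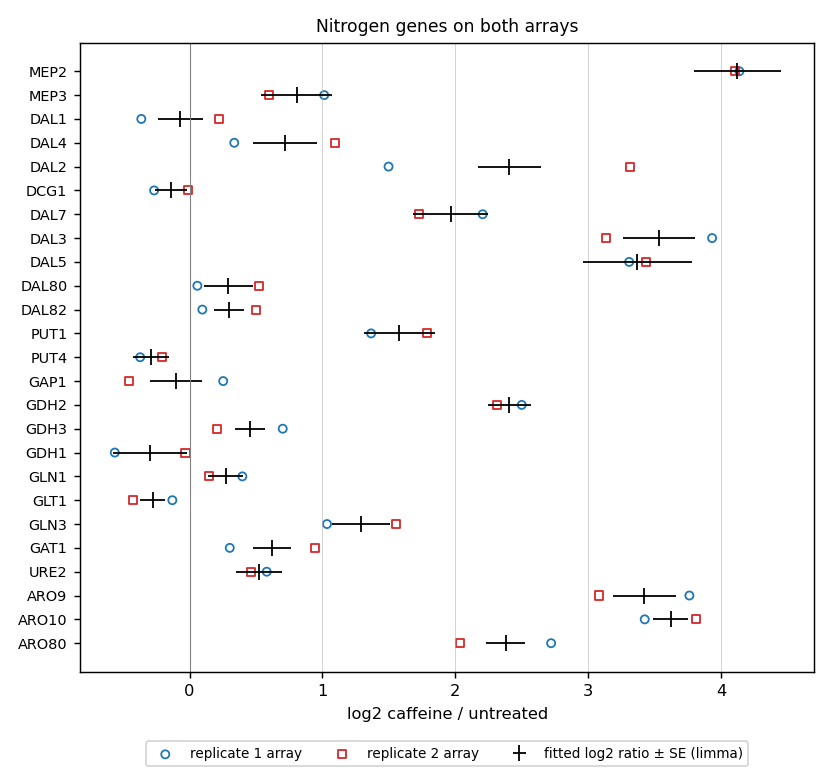
Log2 ratios of caffeine over untreated (x axis) of 25 genes of nitrogen use, with replicate 1 as circles, replicate 2 as squares and the fitted value ± SE from limma in black. MEP2, DAL3, DAL5, GDH2, ARO9, ARO10 and ARO80 lie above 2 on both arrays, while GAP1, PUT4, DAL1, DCG1 and GDH1 have a fitted value below 0.

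Breakdown of aromatic amino acids to fusel alcohols gave 3 of the highest values outside that list. ARO10 (YDR380W), the decarboxylase of this route, had 3.42 and 3.81, a mean of 3.62 ± 0.13 or 12.3-fold. ARO9 (YHR137W), its transaminase, had 3.76 and 3.08, and ARO80, the activator of both, 2.72 and 2.03. The other transaminase gene, ARO8, had −0.09 and 1.10 and did not pass. Genes of amino acid synthesis under Gcn4 had a median of −0.12, with 8 of 54 higher (14.8%) and 14 lower (25.9%). From the 2 arrays alone 6 passed as higher and 4 as lower. CPA1, of arginine synthesis, rose by 1.61 ± 0.17 and ARO2, of aromatic amino acid synthesis, fell by 1.11 ± 0.12. GCN4 itself had 0.68 and 0.40. Among 20 amino acid permeases 5 rose and 5 fell (3 and 2 without replicate 2), shares of 25% each beside 22.1% and 22.5% of all genes. DIP5 (glutamate and aspartate) had 1.81 and 1.49, SAM3 (S-adenosylmethionine) 1.49 and 1.96, and AGP2, a permease-like regulator of transport, 3.26 and 1.19. The opposite direction was seen in TAT1 (tyrosine and tryptophan, −1.70 and −1.09), GNP1 (glutamine, −0.86 and −0.82) and MUP1 (methionine, −0.65 and −1.58). In the sulfur list 8 of 30 fell (26.7%) and 3 rose (10%), or 4 and 1 from the 2 arrays alone. Its share of lower genes, like that of the Gcn4 list, was near the 22.5% of all genes. MET17, which fixes sulfide, had −1.27 and −1.65. The calls of MUP1 and GCN4 were lost in at least 1 other setting.

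Citrate synthesis and its supply rose, whereas several later steps of the citric acid cycle did not. The retrograde response is the route by which dysfunctional mitochondria, or low TOR activity, turn on genes that supply 2-oxoglutarate for glutamate. Its standard reporter is CIT2 (YCR005C), peroxisomal citrate synthase, which had 3.07 and 3.59, a mean of 3.33 ± 0.20 or 10.1-fold (limma adjusted p = 7.71e-11). Mitochondrial CIT1 (YNR001C) had 2.99 and 3.17, and the third gene, CIT3, 0.41 and 1.82. PYC1, pyruvate carboxylase, had 2.53 and 2.59, while its isozyme PYC2 had −0.07 and −0.76 and did not pass. Of 13 genes of the retrograde list, 6 rose and 3 fell (4 and 0 without replicate 2). The cytosolic lactate dehydrogenase gene DLD3 had 1.05 and 0.68, and MKS1, a negative regulator of the pathway, 1.17 and 2.00. The steps after citrate, ACO1 (aconitase, −0.31 and −0.51) and IDH2 (a subunit of isocitrate dehydrogenase, −0.60 and −0.67), fell, although both belong to the same textbook list, and RTG1 stood at −0.49 against 0.28 for RTG3. CIT3, DLD3, ACO1, IDH2, RTG1 and RTG3 lost the call in at least 1 other setting.

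In the citric acid cycle as a whole, 6 of 17 genes rose and 5 fell, or 4 and 0 without replicate 2. FUM1 (fumarase) had 1.22 and 1.20, SDH2 (a succinate dehydrogenase subunit) 1.97 and 0.75, and MDH1 (malate dehydrogenase) −0.60 and −0.46. In the list of gluconeogenesis, the glyoxylate cycle and C2 or C3 use, 6 of 25 genes rose (24%) and 7 fell (28%). These shares were near the 22.1% and 22.5% of all genes, and from the 2 arrays alone 4 passed as higher and 3 as lower. The glyoxylate cycle genes MLS1 (−0.82 and −1.36) and ICL1 (−1.09 and −1.63) fell, as did the acetaldehyde dehydrogenase gene ALD6 (−0.65 and −1.42). FOX2 (1.49 and 0.97), of the same list, rose. Of 39 genes of the respiratory chain and ATP synthase, 12 rose and 7 fell (5 and 2 without replicate 2), with a median of 0.02. ATP15 and ATP17, small subunits of ATP synthase, had 1.35 ± 0.14 and 1.03 ± 0.13, and COX13 0.89 ± 0.12. COX5B, the form of cytochrome c oxidase subunit 5 known from cells short of oxygen, had 1.40 and 2.11, against −0.06 and −1.18 for COX5A, the aerobic form. SDH2, MDH1, ICL1 and COX5A lost the call in at least 1 other setting.

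Stress genes rose in part. The factors Msn2 and Msn4 act on a wide set of genes under many stresses, and among 53 tested genes of that kind 26 rose (49.1%) and 3 fell (5.66%), with a median of 0.35. From the 2 arrays alone 18 rose and 0 fell. HSP12 and TFS1 led, followed by ALD3, an aldehyde dehydrogenase (2.20 and 3.13), and PBI2, an inhibitor of vacuolar proteinase B (2.65 and 2.63). DDR2, a stress gene of unknown function, had 1.25 and 0.98. MSN4 (1.03 ± 0.18) and MSN2 (0.51 ± 0.11) were themselves higher. Lower members were the polyubiquitin gene UBI4 (−0.48 and −1.19, each a mean of 34 spots), the cytochrome c form CYC7 (−0.88 ± 0.13) and MOH1 (−0.82 ± 0.22). HSP26, a small heat shock protein of the same list, had −0.87 and 0.21 and did not pass. MSN2, MSN4, UBI4, CYC7 and MOH1 lost the call in at least 1 other setting.

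In the list of storage carbohydrates 6 of 22 genes rose (27.3%) and 2 fell (9.09%), beside 22.1% and 22.5% of all genes. NTH1, neutral trehalase, had 2.04 and 2.69, a mean of 2.37 ± 0.20, and its paralog NTH2 had 1.0 and 1.13. GPH1, glycogen phosphorylase, had 1.74 and 2.06. UGP1 (0.99 ± 0.12), which makes UDP-glucose, and the glycogen synthase gene GSY2 (0.79 and 0.84) rose less. TPS1, trehalose phosphate synthase, had 0.02 and −0.03, and TSL1, a subunit of the same complex, 0.01 and 0.10, and neither passed. ATH1, the acid trehalase, had −0.01 and −0.10 and did not pass.

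Chaperone genes rose more often than they fell. Among 30 heat shock chaperones 11 rose (36.7%) and 5 fell (16.7%), beside 22.1% and 22.5% of all genes. From the 2 arrays alone the numbers were 7 and 1. HSP104, the disaggregase, had 0.71 and 1.94, each a mean of 34 spots with a spot SD of 0.175 and 0.104, so the gap between the arrays was wider than that between spots. HSP82, the inducible Hsp90 gene, had 0.77 and 1.29, against −0.10 and 0.34 for its constitutive paralog HSC82, which did not pass. The Hsp110 gene SSE1 fell (−0.75 ± 0.11) while its paralog SSE2 rose (0.62 ± 0.12), and SSB1, which acts on chains leaving the ribosome, had −0.58 and −1.53. For folding in the endoplasmic reticulum, 4 of 16 genes rose (25%) and 3 fell (18.8%), near the shares of all genes. In oxidative defence, 9 of 28 rose (32.1%) and 4 fell (14.3%), or 4 and 0 from the 2 arrays alone. TSA2, the minor cytosolic peroxiredoxin, had 2.38 and 2.86, whereas TSA1, the major one, had 0.54 and 0.41. GRX1 (1.49 and 2.31) and GRX2 (1.09 and 0.73), which encode glutaredoxins, both rose. SSE1, SSE2, SSB1, TSA1 and GRX2 lost the call in at least 1 other setting.

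Genes of the vacuole and of autophagy, the route that delivers cell contents there, rose in part. Of 17 vacuolar hydrolases and inhibitors 7 rose (41.2%) and 0 fell. Beside APE1, TFS1 and PBI2 these were PEP4, proteinase A, which activates other vacuolar proteases (1.77 and 1.84), LAP3, a cysteine aminopeptidase (1.81 and 1.54), ATG42, a carboxypeptidase (2.03 and 1.99), and APE3 (0.76 and 0.80). Other main proteases gave no call, with PRB1 at −0.55 and 0.30 and PRC1 at 0.12 and 0.42. Of 33 ATG genes 13 rose (39.4%) and 7 fell (21.2%), with a median of 0.29. Among all genes 22.1% rose and 22.5% fell, so the share of lower ATG genes was near that of all genes. ATG33 and ATG32, of selective removal of mitochondria, had 2.24 ± 0.16 and 1.15 ± 0.23. ATG9, the membrane protein that seeds the autophagosome, had 1.09 and 1.63, ATG29, of the scaffold that starts it, 1.45 and 1.27, and ATG14, of the phosphatidylinositol kinase complex, 1.91 and 1.07. Lower were ATG17, of the same scaffold as ATG29 (−0.14 and −0.47), ATG10 (−0.70), which conjugates the ubiquitin-like Atg12, ATG27 (−0.69) and ATG41 (−0.55). ATG8, the lipid-anchored marker of autophagosomes, had 0.05 and 0.69, and ATG1, the starting kinase, had −0.27 and −0.08 and did not pass. From the 2 arrays alone 7 ATG genes passed as higher and 0 as lower, without replicate 1 7 and 4 and without replicate 2 8 and 2. APE3, ATG8, ATG10, ATG14, ATG17, ATG27, ATG32 and ATG41 lost the call in at least 1 other setting.

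Of 37 tested genes of the TOR pathway itself, 7 rose (18.9%) and 2 fell (5.41%), beside 22.1% and 22.5% of all genes, with a median of 0.07. Without replicate 1 the numbers were 4 and 4, and without replicate 2 they were 6 and 1. SLM4, of the EGO complex that carries amino acid signals to TOR complex 1, had 2.09 and 2.36, a mean of 2.23 ± 0.22. GTR1, a GTPase of the same complex, had 0.46 and 0.82, and TAP42, a phosphatase partner downstream of TOR, 0.38 and 1.28. AVO1 (1.01 ± 0.26), TSC11 (1.0 ± 0.28), BIT2 (0.76 ± 0.15) and SLM2 (0.34 ± 0.11), which encode subunits or targets of TOR complex 2, were higher. RIM15, a kinase held in the cytoplasm by TOR, had −0.87 and −0.77, and TOR2 had −0.07 and −0.66. TOR1, the kinase gene whose product is found in TOR complex 1, had 0.09 and 0.21 and did not pass. Except for SLM4 and RIM15, each of these calls was lost in at least 1 other setting.

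In the Ras and cAMP pathway, 6 of 16 genes rose and 1 fell, with a median of 0.21. Cyclic AMP, made by adenylate cyclase and broken down by phosphodiesterases, activates protein kinase A. PDE1 and PDE2, the low- and high-affinity phosphodiesterases, had 1.66 and 2.62 and 1.24 and 0.75, at means of 2.14 ± 0.15 and 0.99 ± 0.14. CYR1, adenylate cyclase, had 0.93 and 0.84, and GPR1, the glucose receptor that feeds into it, 1.35 and 1.30. GPB1 (0.67 ± 0.21) and GPB2 (0.50 ± 0.20), kelch proteins that act with GPR1 signalling, also rose. RAS1 fell (−0.66 and −1.16), whereas RAS2 had −0.11 and 0.23 and did not pass. The calls of CYR1, GPB1 and GPB2 were lost in at least 1 other setting.

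In sugar uptake and use, transporters passed as lower more often than all genes, but only in some settings. Of 26 hexose transporters and sensors 12 fell (46.2%) and 1 rose (3.85%), beside 22.5% and 22.1% of all genes. Their median was −0.28, at −0.06 on replicate 1 and −0.50 on replicate 2. HXT5, the transporter of slowly growing cells, had 2.63 and 2.92, a mean of 2.77 ± 0.29 or 6.84-fold. HXT2 (−0.86 and −1.62) and HXT4 (−0.37 and −1.41), high-affinity transporters, fell. With the 2 arrays alone 1 of the 26 passed as lower, beside 5.29% of all genes. With arrays scaled it was 2, beside 7.61% of all genes. Several sequences of this family are close to each other, so spots may share transcripts. Of 24 genes of glycolysis and fermentation 8 fell and 4 rose (2 and 1 without replicate 2). ADH1, the main alcohol dehydrogenase, had −0.74 and −1.95, and TYE7, an activator of glycolytic genes, −1.01 and −1.44. Hexokinase 2 (HXK2, −0.69 and −1.03) fell while hexokinase 1 (HXK1, 0.93 and 0.31) rose, and PFK26, which makes fructose 2,6-bisphosphate, had 1.14 and 2.16. In the pentose phosphate pathway 2 of 11 rose and 4 fell (2 and 1 without replicate 2). NQM1 had a mean of 3.78 ± 0.44 beside 0.29 ± 0.24 for its paralog TAL1, which did not pass. HXT4, HXK1, HXK2 and PFK26 lost the call in at least 1 other setting.

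**Figure D5:**
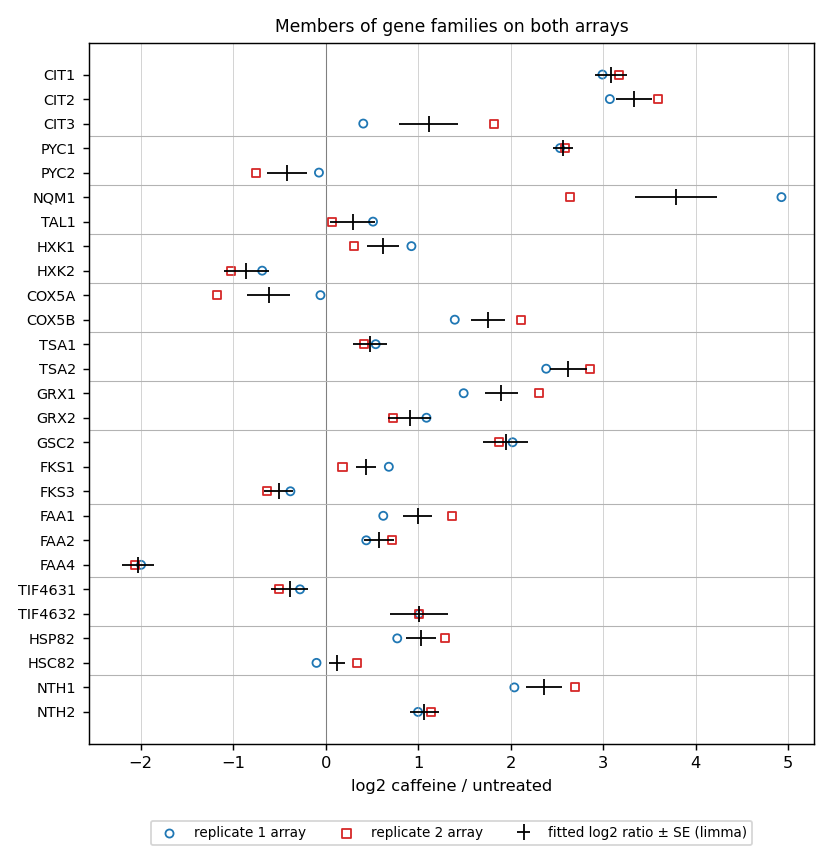
Log2 ratios of caffeine over untreated (x axis) of the tested members of 12 gene families, set apart by lines, with replicate 1 as circles, replicate 2 as squares and the fitted value ± SE from limma in black. Members of a family stand apart in several, such as PYC1 (2.53 and 2.59) and PYC2 (−0.07 and −0.76), or FAA1 (0.62 and 1.36) and FAA4 (−2.0 and −2.06); differences within a family were not tested.

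Nucleotide synthesis was lower on the purine side. Of 34 genes of purine synthesis and salvage 21 fell (61.8%) and 2 rose, with a median of −0.48. Beside IMD2, given above, IMD4, another IMP dehydrogenase, had −0.54 and −1.68. GUA1, which makes GMP, had −0.72 and −1.25, GUK1, which makes GDP, −0.78 and −1.25, and APT1, which salvages adenine, −1.61 and −1.95. The 2 higher genes were ADE8 (1.15 and 0.74), of an early step, and PNP1 (0.13 and 0.66), of salvage. From the 2 arrays alone, and likewise without replicate 2, 6 purine genes passed as lower and 1 as higher. Of 15 pyrimidine genes 4 fell (26.7%) and 0 rose, beside 22.5% and 22.1% of all genes, so the share of lower genes was near that of all genes. From the 2 arrays alone 2 passed as lower and 0 as higher. FUR1, which salvages uracil, had −1.76 and −2.12. IMD4, ADE8 and PNP1 lost the call in at least 1 other setting.

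Outputs of the cell wall integrity pathway, a MAP kinase cascade that answers damage to the wall, rose in part. Of 21 tested output genes 10 rose (47.6%) and 0 fell, with a median of 0.43, and 6 passed from the 2 arrays alone. The arrays differed for this list, with a median of 0.69 on replicate 1 and 0.19 on replicate 2. Of the 21 genes, 13 had the same sign on both arrays, against 3885 of 5270 genes tested. SRL3 had 2.34 and 1.84, GSC2, the inducible glucan synthase, 2.02 and 1.87, PIR3, a mannoprotein bound to glucan, 1.86 and 1.72, and PRM5 0.89 and 0.92. All 4 were high on both arrays. FKS1, the main glucan synthase gene, had 0.68 and 0.18, and FKS3 had −0.38 and −0.64. Of 24 components of the pathway, 6 rose and 2 fell (3 and 2 without replicate 1). MKK1, a MAP kinase kinase, had 1.15 and 1.03, and TUS1, an exchange factor of Rho1, 2.56 and 0.97. In glucan and chitin synthesis 13 of 37 rose (35.1%) and 6 fell (16.2%), beside 22.1% and 22.5% of all genes. The list had a median of −0.03, at 0.27 on replicate 1 and −0.10 on replicate 2. From the 2 arrays alone 5 passed as higher and 0 as lower. Among the higher were KRE6 (1.15 and 1.19), of beta-1,6-glucan, and SKT5 (1.15 and 1.14), an activator of chitin synthase III. FKS1, FKS3 and TUS1 lost the call in at least 1 other setting, whereas SRL3, GSC2, PIR3, PRM5, MKK1, KRE6 and SKT5 did not.

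For the structural proteins of the wall the arrays disagreed. Among 38 wall mannoprotein genes the median was 0.53 on replicate 1 and −0.57 on replicate 2, and 15 had the same sign on both arrays, against 3885 of 5270 genes tested. Their median dye term was 0.14. CCW12, a major wall protein, had 0.73 and −0.73, CWP2 0.64 and −0.71, SED1 1.23 and −0.38 and DAN1 1.80 and −0.58, and none of them passed. The list's calls, 6 higher and 4 lower (5 and 7 without replicate 1, 6 and 1 without replicate 2), include PST1 (0.83 and 1.07) and SPI1 (0.74 and 0.93), which did have the same sign on both. Which array is nearer the state of treated cells was not tested.

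Histone genes fell. Of 11 core histone genes and variants 9 fell (81.8%) and 0 rose, with a median of −0.94. HTB2 and HTB1, of histone H2B, had −1.17 and −1.91 and −1.06 and −1.61. HHF2 and HHF1, of histone H4, had −0.91 and −1.93 and −0.70 and −1.74. HTZ1, the variant H2A.Z, had −0.76 and −1.11. The exceptions were CSE4, the centromere variant (−0.01), and HHO1, the linker histone (−0.45), which did not pass. As in the ribosomal protein genes, replicate 2 gave the lower values, with medians of −0.70 on replicate 1 and −1.45 on replicate 2 and a median dye term of 0.31. Of 18 cyclins and cell cycle regulators 4 fell and 3 rose (3 and 0 without replicate 2), with the mitotic cyclins CLB3 (−0.92 and −1.25) and CLB4 (−0.87 and −1.13) among the lower. In the DNA damage list 7 of 21 fell and 2 rose (5 and 1 without replicate 2). MEC1 (−1.66 and −1.34) and TEL1 (−0.74 and −1.0), kinase genes of that response, fell, and RAD7, of nucleotide excision repair, had 2.14 and 1.70. Of the core histone list, 5 genes fell without the replicate block, HTB1 and HTB2 not among them, and 6 from the 2 arrays alone.

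Genes of multidrug transport rose more often than they fell, 11 (50%) against 5 (22.7%) of 22, beside 22.1% and 22.5% of all genes. Their median was 0.44, and from the 2 arrays alone 7 passed as higher and 1 as lower. TPO4, a polyamine exporter, had 2.83 on both arrays (2.83 ± 0.52), TPO3 1.19 and 1.70, PDR10, an ABC transporter, 1.81 and 1.36, PDR15 1.39 and 1.13, and FLR1 1.06 and 1.28. PDR5, the main drug pump, stood at 0.51 and 0.53. PDR3, an activator of the regulon, fell (−1.10 and −1.23). Of 18 genes of calcium and calcineurin signalling 8 rose (44.4%) and 2 fell (11.1%), with a median of 0.43. Without replicate 2, 3 rose and 0 fell, and with arrays scaled 3 and 1. PMC1, the vacuolar calcium pump, had 1.37 and 2.40, YPS1, a surface protease, 1.79 and 1.24, RCN2, a regulator of calcineurin, 1.42 ± 0.30 on average, and CRZ1, the transcription factor that calcineurin activates, 0.97 and 1.27. PDR5, PDR15, RCN2 and CRZ1 lost the call in at least 1 other setting.

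Of 16 fatty acid and phospholipid genes 4 rose (25%) and 5 fell (31.2%), near the 22.1% and 22.5% of all genes, and of 26 ergosterol genes 5 rose (19.2%) and 9 fell (34.6%). Without replicate 2 the numbers were 3 and 2, and 3 and 2. OPI3, which makes phosphatidylcholine by methylation, had 1.69 and 2.63. ERG12 (1.60 and 0.89), mevalonate kinase, rose and MVD1 (−0.80 and −0.88), of the same pathway, fell. Of 19 phosphate starvation genes 7 fell and 1 rose (4 and 0 without replicate 2), with PHO3, an acid phosphatase, at −2.11 and −1.23 and VTC3, of polyphosphate synthesis, at −1.01 and −1.23. SPL2, a small regulator of phosphate uptake, had 0.21 and −4.79, so its mean of −2.29 ± 0.51 comes from 1 array, and it did not pass from the 2 arrays alone or without replicate 2. In the iron list 3 of 26 rose (11.5%) and 5 fell (19.2%), or 2 and 0 from the 2 arrays alone. Its siderophore transporter gene ENB1 had 0.92 and 1.45. In the zinc list 3 of 12 rose (25%) and 1 fell (8.33%), IZH1 at −1.21 and −1.04. Of the remaining lists, the proteasome had 4 of 32 higher (12.5%) and 6 lower (18.8%), beside 22.1% and 22.5% of all genes. Osmotic response had 5 of 17 higher (29.4%) and 3 lower (17.6%), and pheromone response 5 of 22 higher (22.7%) and 2 lower (9.09%). From the 2 arrays alone the numbers were 1 and 1, 3 and 0, and 0 and 0. In the seripauperin family 3 of 21 rose (14.3%) and 8 fell (38.1%), or 0 and 2 from the 2 arrays alone. Its members have near-identical sequences, so spots may share transcripts and these counts are uncertain.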

How the data were processed

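Per array, the deposited table holds natural log (ln) ratios whose mean is 0, a unit inferred from the numbers. The sources used here do not give scanner, probe type, background correction or normalization. Of 15488 spots 11872 named 5713 genes, all of which matched a RefSeq gene by ID. Spots at an array's floor value, its most frequent ratio, were left out. The ln ratios were converted to log2 (dividing by 0.693), averaged per gene and centred on the array median.

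Genes with a value on both arrays and on at least 24 of 36 arrays were tested, 5270 in all. Limma 3.58.1 (R 4.3.3) modelled the 36 arrays of the series with a term for each of 18 conditions and 1 for dye, which doubles as the replicate block, leaving 17 residual degrees of freedom and a prior of 3.87. The block was kept because same-numbered arrays deviated together from their condition means. Their correlation was over 0.1 in each of 153 condition pairs, with a median of 0.58. Pairs with this condition had 0.127 to 0.557, so all of them lay below that median. Without the block the median SE was 0.238 and 1389 genes were called, against 0.165 and 2352 with it. P-values were adjusted by Benjamini-Hochberg over all genes tested. On simulated data of 5270 genes, the fit recovered 89 of 100 genes changed by a log2 of 1 and 100 of 100 changed by 2. It made 7 false of 196 calls. The simulation drew independent normal noise with 1 SD per gene over all arrays. The 2 real arrays differed in spread (0.496 and 0.739), so these numbers do not give the error rate of the calls above. The number of arrays limits the precision. Tables were prepared with python 3.11.15, numpy 2.4.6 and pandas 2.3.3.

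Named genes were the 15 highest and 15 lowest that passed with the same sign on both arrays, up to 4 members per list with the smallest p, and every called member of the TOR and the Ras and cAMP lists. Other named genes, the gene families and the cluster were chosen after their values were seen. All members and lists were chosen with earlier results of these data known, and some lists share genes. Other settings tried were the fit without the block, with caffeine arrays only, to the 2 arrays alone, without centring, with scaled arrays, floored spots kept, stricter and no array filters, array weights, spot medians, robust variance and without each replicate. A planned search of promoters for motifs is not analysed here.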

Additional observations from a re-analysis of the deposited data

How the results depend on the processing

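Over 13 other settings the count of called genes varied. Against 2352 called genes, the count was 1389 (777 higher, 612 lower) without the replicate block, 842 from the 2 arrays alone without the block, 899 with arrays scaled to one spread and 1558 (797 higher, 761 lower) with array weights. Leaving out 1 array gave between 1187 (676 higher, 511 lower, without replicate 2) and 1980 (without replicate 1). It lay within 1.5 times the main count with caffeine arrays only (1644), uncentred values (2295), floored spots kept (2189 of 5713), genes on all arrays (1913 of 4242), no array filter (2351), spot medians (2358) and robust variance (2344). Of the called genes, 530 kept the call and sign in every setting that tested them, 343 higher and 187 lower. Of the genes named or followed, BGL2, a wall glucanase, alone changed sign where called: 3.35 and −0.27 on its arrays gave 1.54 ± 0.45, and it stood at −0.037 without replicate 1 and 3.12 without replicate 2. The cause was not tested. Calls rest on 2 arrays whose spread differs, and spots at the floor value were treated as holding no ratio. Signal over background is not in the deposited ratios.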

Other observations

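For a few genes 1 array carried the whole result. The SD between the 2 arrays exceeded 1 for 146 of 5270 genes, against a median of 0.255. The widest gaps after SPL2 were in PUF3, an RNA-binding protein of mitochondrial transcripts (0.08 and 4.09), CDC33, the cap-binding protein eIF4E (2.45 and −1.28), BGL2 (3.35 and −0.27) and PMP3, a small membrane protein (3.59 and 0.10). PUF3, BGL2 and PMP3 passed with the variance of all arrays but not from the 2 arrays alone (limma adjusted p = 0.0783, 0.143 and 0.0785).

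For 12 genes with 34 spots each, the spread over spots can be set beside the gap between arrays. ACT1, actin, had 0.49 ± 0.13 and 0.37 ± 0.10 (SD over 34 spots) on replicates 1 and 2, and passed at 0.43. NUP159 (0.05 and 0.02) and NUP82 (−0.01 and 0.14), of the nuclear pore, did not pass. TDH1, a glyceraldehyde phosphate dehydrogenase, had 0.93 ± 0.17 and −0.44 ± 0.32, so the arrays differed by more than the SD over spots. The reverse held for RPS6B, a ribosomal protein gene (−0.41 ± 0.49 and −1.09 ± 1.06), on replicate 2, and for SSA4, an Hsp70 gene (0.74 ± 0.36 and 0.91 ± 0.50), on both. It also held on both for NUP159, NUP82 and SWI1 (−1.07 ± 0.41 over 29 spots and −0.99 ± 0.40 over 33), which passed at −1.03.

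RIM20, of the same alkaline pH pathway as RIM21, had 1.41 and 2.44 (1.93 ± 0.20, limma adjusted p = 1.44e-07), while RIM8 (0.07 and 0.33) and RIM9 (0.07 and −0.25) did not pass. These were looked up after RIM21 was seen among the highest genes.

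Of 3616 spots without a gene name, 1655 had a value on both arrays, and 44 of them lay above 1 and 14 below −1 on both.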
